A study of Mus musculus with 6 samples.

Results

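The 9 genes described here, Gsk3a, Gsk3b, Ctnnb1, Axin1, Axin2, Apc, Lef1, Tcf7 and Tcf7l2, encode the GSK3 kinases, beta-catenin, the scaffold of its destruction complex and LEF/TCF transcription factors. Their members are all the non-control array probes that carry one of these gene names, which gave 17 probes of 55681 on the array, where 24105 gene names occur. They were measured in 1676 cells, a mouse pre-B cell line that lacks the adaptor proteins SLP-65 and LAT (SLP-65-/- LAT-/-) and grows in interleukin-7 (IL-7), the growth factor of B cell precursors. All 6 samples shared this genotype, excess IL-7, a retroviral vector and selection with puromycin. The groups were an empty control vector, a vector expressing hsa-miR-26a-2 (miR-26a) and a vector with a sponge RNA that sequesters the miR-26 family (sponge), with 2 arrays each from 2 experiments with independently generated cell clones. No scrambled sponge was among these arrays, the control vector being empty, and all values are from 1 cell line under IL-7.

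In cells without a Wnt signal, axin and APC hold beta-catenin next to GSK3, which phosphorylates it and thereby marks it for degradation. When GSK3 is kept from it, beta-catenin accumulates, enters the nucleus and turns LEF/TCF factors from repressors into activators of genes such as Axin2, Lef1 and Tcf7. Among LEF/TCF genes, Lef1 is known for its expression in pro-B and pre-B cells, and GSK3 also acts outside the Wnt pathway as a kinase that is held in check by AKT. A miRNA binds mRNAs mainly through its seed, bases 2 to 8 of the mature strand, and lowers their level or translation.

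The mature strands at issue are shown because the seed, in capitals, is what the miR-26a vector supplies and the sponge is meant to occupy. Both mouse strands carry the same seed.
mmu-miR-26a-5p: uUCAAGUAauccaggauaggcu
mmu-miR-26b-5p: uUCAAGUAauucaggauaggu
These RefSeq sequences (GRCm38.p6, plus strand) lie at chr9:119031811-119031832 in Mir26a-1, at chr10:126995543-126995564 in Mir26a-2 and, for miR-26b, at chr1:74394324-74394344 in Mir26b. The 17 probes were searched on their own strand for the words that pair with this seed. The shortest word was ACTTGA, which all the longer ones contain, and it was found in 0 of the 17 probes, beside 2% of all tested probes. Among all tested probes, TACTTGA occurred in 0.441%, the word ACTTGAA in 0.739%, and TACTTGAA, which holds both, in 0.188%. Each probe covers only 60 bases of its transcript, and the remainder of the transcripts was not searched here.

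Of the 17 probes, 11 probes of 7 genes were bright enough to be tested, and each of them was above a signal of 50 on all 6 arrays, so that none entered through 1 group alone. The 6 probes that were not tested were both probes of Axin2, both of Tcf7, 1 of Apc and 1 of Tcf7l2, none of which reached 50 on any array. Values are log2 of the quantile-normalized scanner signal, and levels are set side by side only within a probe. The 6 arrays had 28823 to 29800 of 59305 spots well above background, no saturated spot, and replicate correlations of 0.9957 to 0.9974. All 10 B cell precursor markers were well above background on every array, with a summed signal of 471000 to 542000, whereas 3 of 8 T cell, 3 of 7 myeloid, 3 of 4 plasma cell, 1 of 6 stromal and 1 of 4 erythroid markers were. Those above background on all 6 arrays were Cd3e, Cd4 and Lck (T cell), Csf1r, Itgam and Elane (myeloid), Sdc1, Prdm1 and Xbp1 (plasma cell), Col1a2 and Klf1. By contrast, 2 T cell markers (Cd3g and Bcl11b), 1 myeloid (Cd14), 1 plasma cell (Jchain), 5 stromal and 3 erythroid markers were so on no array. The Blnk probe, for the gene of SLP-65, read 14.90 to 15.61 and the Lat probe 10.10 to 10.30 across the 6 arrays. Which part of either gene is deleted is not given in the sources used here, and a probe outside that part does not check the genotype.

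The first question was how the 9 genes changed under miR-26a. With limma, adjusted over all 20168 tested probes, 4 of the 11 member probes were lower and 1 was higher than in the control at an adjusted p below 0.05, beside 5.14% of all tested probes called lower and 4.5% called higher (9.64% either way). Both Lef1 probes, 1 of 2 tested Tcf7l2 probes and 1 of 3 Gsk3b probes fell, Ctnnb1 rose, and no probe of Gsk3a, Axin1 or Apc passed the test. The median log2 change of the 11 probes was -0.15, from -0.62 to 0.37, beside a median of 0.01 for all tested probes. The 9 genes were chosen with earlier results of these data known, so these shares are a description only. In RNA from whole cultures, fewer cells that express a gene and less of its RNA per cell cannot be told apart. Of the 10 B cell precursor markers, 2 fell with them, Rag1, of the V(D)J recombinase, by 2.47 on the log2 scale (limma adjusted p = 0.00555) and Blnk by 0.49 (adjusted p = 0.0275), and 0 of the tested markers of other cells were called. The part of these shifts in the results was not tested.

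These calls depended on the control arrays and on the pairing of the 2 experiments, and that of Ctnnb1 also on the sponge arrays in the fit. With either control array left out, 0 of the 11 probes passed (adjusted p 0.0821 to 0.242 in limma for the 5 named), although their log2 changes stayed between -0.65 and -0.40 for the 4 lower ones and at 0.37 for Ctnnb1. Without the experiment as a block, 1 probe, the Lef1 probe A_55_P2076871, was called. Over 15 alternative runs, not all independent, the call was lost in 10 for Ctnnb1 and in 7 for Gsk3b A_66_P104190. It was lost in 5 for Tcf7l2 A_55_P2030160, in 6 for Lef1 A_51_P420400 and in 4 for Lef1 A_55_P2076871.

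**Figure D1:**
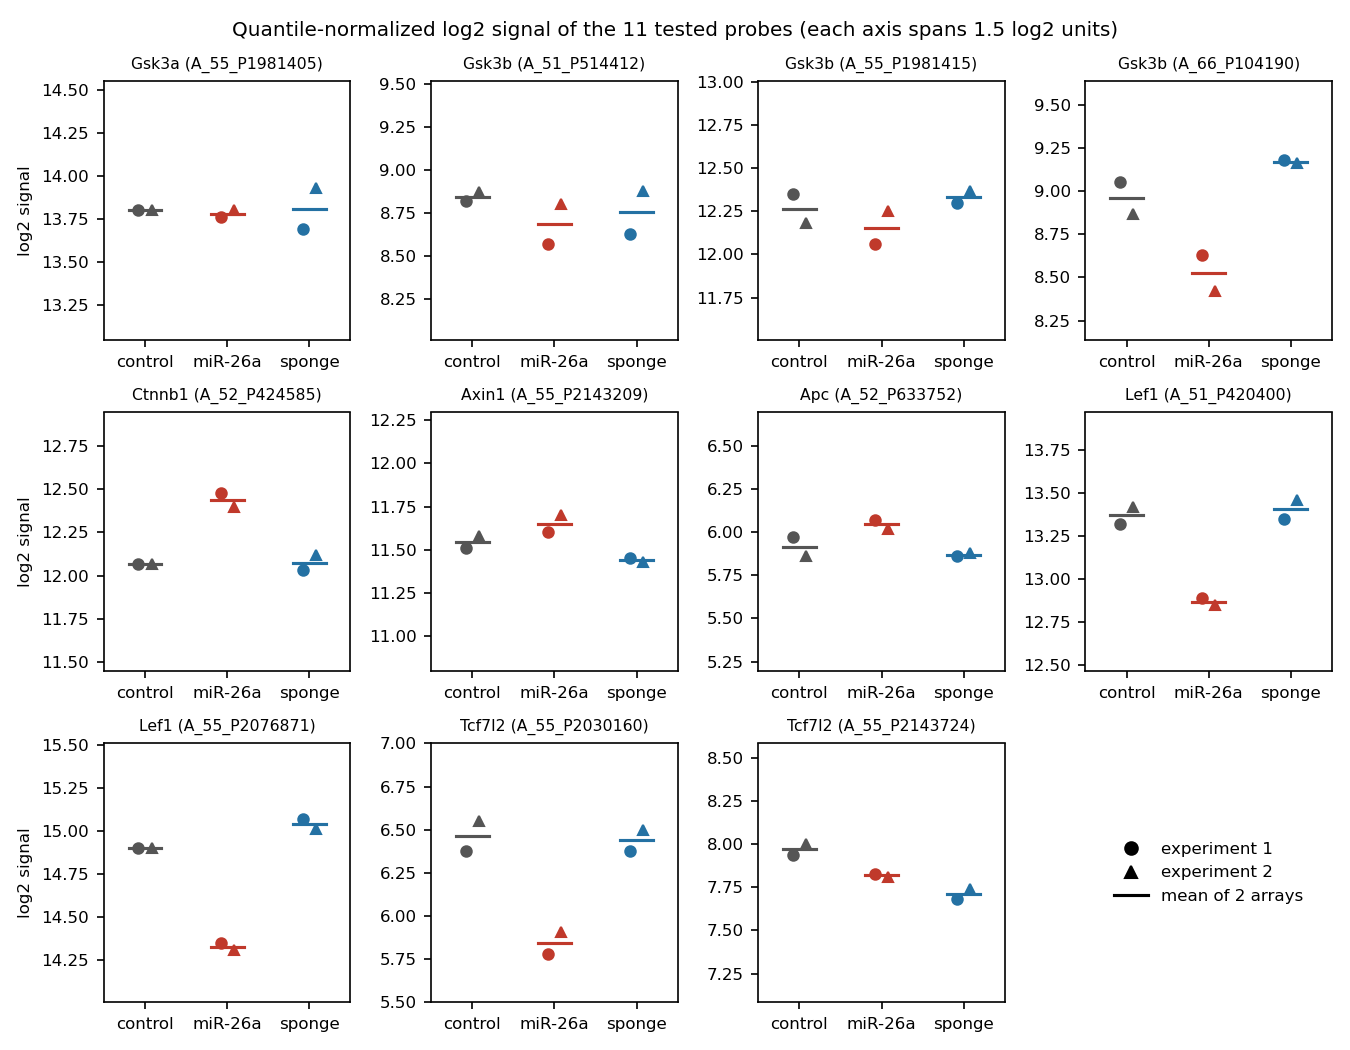
Normalized log2 signal of each of the 11 tested probes on each of the 6 arrays, by group (x axis), with circles for experiment 1, triangles for experiment 2 and a line at the mean of the 2 arrays. The miR-26a arrays lie below all control and sponge arrays for both Lef1 probes, Gsk3b A_66_P104190 and Tcf7l2 A_55_P2030160, and above them for Ctnnb1.

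Lef1, the lymphoid enhancer factor that binds DNA through an HMG box and recruits beta-catenin, is represented by 2 probes on chromosome 3 (mm9, plus strand). The probe A_51_P420400 spans an exon junction between positions 130907851 and 130926012, and A_55_P2076871 lies at chr3:130926200-130926259. On A_55_P2076871, the log2 signal was 14.90 and 14.90 in the 2 control arrays, 14.35 and 14.31 in the miR-26a arrays, and 15.07 and 15.01 in the sponge arrays. Both miR-26a arrays were thus below all others, and the sponge arrays were the highest. Separation of groups, here and below, is a description only, because an exact test of 2 against 2 arrays cannot go below p = 0.333. The share of all tested probes that separate likewise is not given here. The change under miR-26a was -0.57 ± 0.07 (log2, SE, n = 2 against 2) or -32.5% on the linear scale, with a limma adjusted p of 0.0106. It was -0.55 in experiment 1 and -0.58 in experiment 2.

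On the Lef1 probe A_51_P420400, control arrays read 13.32 and 13.42, miR-26a arrays 12.89 and 12.85, and sponge arrays 13.35 and 13.46. Here too the miR-26a arrays did not overlap the other groups, while control and sponge arrays did overlap. The log2 change under miR-26a was -0.50 ± 0.07 (SE), or -29.4% on the linear scale, with a limma adjusted p of 0.0185. The difference between the changes of the 2 Lef1 probes was 0.07 log2 units (limma adjusted p = 0.999).

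Tcf7l2 encodes TCF-4, a TCF that can repress or activate Wnt target genes depending on beta-catenin, and its 3 probes lie far apart on chromosome 19 (mm9, plus strand). In 5′ to 3′ order they are A_55_P2143724 at chr19:55817272-55817331, A_55_P2030160 at chr19:55994029-55994088 and A_55_P2260094 at chr19:56006638-56006697. The first 30 bases of the middle probe (chr19:55994029-55994058) are shown because this is the probe that fell and because they lie in the stretch that codes for the HMG box, the DNA-binding domain that LEF/TCF factors share.
Tcf7l2 A_55_P2030160: caaaatactacgagctggcccggaaggaac
On this probe the control arrays read 6.38 and 6.55, the miR-26a arrays 5.78 and 5.91, and the sponge arrays 6.38 and 6.50. The miR-26a arrays were below all 4 others, and control and sponge overlapped. The log2 change under miR-26a was -0.62 ± 0.07 (SE), or -35.1%, with a limma adjusted p of 0.00863, and it was -0.60 in experiment 1 and -0.65 in experiment 2. After a background correction with an offset of 50, which compresses dim probes, the change was -0.34 (adjusted p = 0.0182).

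The most 5′ Tcf7l2 probe, A_55_P2143724, gave another order of groups. It read 7.94 and 8.0 in the control arrays, 7.83 and 7.81 in the miR-26a arrays, and 7.68 and 7.74 in the sponge arrays. The 3 groups did not overlap, with the control highest and the sponge lowest, but neither change passed the test. The log2 change under miR-26a was -0.15 ± 0.07 (SE, limma adjusted p = 0.237). The third Tcf7l2 probe was well above background on 1 control array only, at a log2 signal of 4.04, and was at 2.17 to 3.29 on the other 5 arrays.

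A test of each probe against the other tested probes of its gene, added after the values were seen, was run with limma on 7097 probes of 3173 genes. Under miR-26a, the HMG box probe of Tcf7l2 had a log2 change lower than that of the 5′ probe by a difference of -0.48 (unadjusted p = 0.000471, adjusted p = 0.0576). This difference missed the threshold, which 0.705% of these probes passed. With the sponge the difference was 0.23 (adjusted p = 0.392), beside 0.0282% of probes called. Between miR-26a and sponge the difference was -0.71 (adjusted p = 0.0104), where 3.28% of probes were called. This call was lost with any 1 of the 6 arrays left out (adjusted p 0.0706 to 0.138) and without the experiment block (adjusted p = 0.0644), and the background correction with the offset gave -0.40 (adjusted p = 0.0479). Lef1, whose HMG box is related, fell on the same arrays, and the part of its transcripts in the signal of the Tcf7l2 probe was not tested.

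Tcf7, the gene of TCF-1, was near the limit of detection. Its probe A_52_P244702 (chr11:52066114-52066173, mm9, minus strand) read 4.36 and 3.65 in the control arrays, 2.47 and 3.01 in the miR-26a arrays, and 4.34 and 4.22 in the sponge arrays. It was well above background on both control and both sponge arrays and on neither miR-26a array. Both miR-26a arrays read below all control and sponge arrays (n = 2 against 2, not tested because the signal was under 50). By the group means of these readings, Tcf7 was 2.40-fold lower under miR-26a than in the control and 2.91-fold lower than with the sponge. These ratios rest on miR-26a readings not well above background and are not minimum changes. The difference from the control was not of the same size in the 2 experiments. The second Tcf7 probe, A_55_P2109633, was above background on no array, at 1.51 to 1.68.

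Gsk3b, the isoform of the kinase most studied in Wnt signaling, has 3 probes on chromosome 16 (mm9, plus strand), and they did not behave alike. In 5′ to 3′ order these are A_51_P514412, across an exon junction between positions 38187987 and 38191632, A_55_P1981415 at chr16:38241177-38241236, and A_66_P104190 at chr16:38246094-38246153. The last of these holds the word AATAAA, the core of the common polyadenylation signal, as did 2 of the 17 member probes and 13.1% of all tested probes. On it, control arrays read 9.05 and 8.87, miR-26a arrays 8.63 and 8.42, and sponge arrays 9.18 and 9.16. The 3 groups did not overlap, with miR-26a lowest and the sponge highest. The log2 change under miR-26a was -0.44 ± 0.08 (SE), or -26.2%, with a limma adjusted p of 0.0301, and the change was -0.42 and -0.45 in the 2 experiments.

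The other two Gsk3b probes did not pass the test. A_51_P514412 read 8.82 and 8.87 in the control, 8.57 and 8.80 under miR-26a, and 8.63 and 8.88 with the sponge, a log2 change under miR-26a of -0.16 ± 0.08 (SE, limma adjusted p = 0.263). A_55_P1981415 read 12.35 and 12.18 in the control, 12.06 and 12.25 under miR-26a, and 12.30 and 12.37 with the sponge, a change of -0.11 ± 0.10 (SE, limma adjusted p = 0.548) that was -0.29 in experiment 1 and 0.07 in experiment 2. In the test of probes within a gene, the 3′ Gsk3b probe differed from the others by -0.30 (adjusted p = 0.366) against the control and by -0.52 (adjusted p = 0.0382) between miR-26a and sponge. The latter call was lost with any 1 of the 6 arrays left out (adjusted p 0.0892 to 0.295), without the block (adjusted p = 0.182) and with the background offset (adjusted p = 0.0705). With the 3 probes averaged the Gsk3b change against the control was -0.24 (adjusted p = 0.0868).

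Gsk3a, the other kinase isoform, was measured by A_55_P1981405 (chr7:26013279-26013338, mm9, minus strand). It read 13.80 and 13.80 in the control, 13.76 and 13.80 under miR-26a, and 13.69 and 13.93 with the sponge, so that all groups overlapped. Its log2 change under miR-26a was -0.02, with a 95% confidence interval of -0.23 to 0.19 (limma adjusted p = 0.918).

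Ctnnb1, the gene of beta-catenin, was the only member probe that rose under miR-26a. Its probe A_52_P424585 (chr9:120869274-120869333, mm9, plus strand, 2 spots averaged) read 12.07 and 12.07 in the control, 12.48 and 12.40 under miR-26a, and 12.03 and 12.12 with the sponge. The miR-26a arrays were above all others, and control and sponge overlapped. The log2 change was 0.37 ± 0.07 (SE), or 29.0%, with a limma adjusted p of 0.0403, and it was 0.41 and 0.33 in the 2 experiments. From the 4 control and miR-26a arrays alone, the limma adjusted p was 0.0631, and without the experiment block it was 0.0983. The arrays measure mRNA, and the amount or location of the beta-catenin protein, which the destruction complex controls, was not measured.

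Among the scaffold genes, Axin1 and Apc were measurable and did not pass the test. The Axin1 probe (A_55_P2143209, chr17:26332106-26332165, mm9, plus strand) read 11.51 and 11.58 in the control, 11.60 and 11.70 under miR-26a, and 11.45 and 11.43 with the sponge, without overlap between groups. Its log2 change under miR-26a was 0.11 (95% confidence interval -0.07 to 0.28, limma adjusted p = 0.385). The brighter Apc probe, A_52_P633752, read 5.86 to 5.97 in the control, 6.02 to 6.07 under miR-26a and 5.86 to 5.88 with the sponge, a change of 0.13 under miR-26a (95% confidence interval -0.04 to 0.31, limma adjusted p = 0.294). The second Apc probe was well above background on 1 miR-26a array only, at 3.68.

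Axin2, a scaffold paralogue of Axin1 that is widely used as a readout of beta-catenin activity, was at or near background. A_55_P2000783 (chr11:108812034-108812093, mm9, plus strand) was well above background on no array, at 1.36 to 3.53. A_66_P134405 (chr11:108803927-108803986) read 2.33 and 1.54 in the control, 1.45 and 3.22 under miR-26a, and 2.72 and 4.06 with the sponge, and it was well above background on the brighter sponge array only. Both sponge arrays read above both control arrays on this probe (not tested, and measured on 1 of 2 sponge arrays). No fold change is given, because the control arrays and the dimmer sponge array were not well above background. On the other probe, control and sponge arrays overlapped. A fall of Axin2 was not detectable at these signals.

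The second question was whether sequestering the miR-26 family moved these genes. None of the 11 member probes was called in limma between sponge and control, in a comparison where 0% of all tested probes were called lower and 0.00992% higher. At an unadjusted p below 0.05, 1 member probe was lower and 1 higher, beside 8.72% and 7.38% of all tested probes. An unpaired test of each probe alone, with the same adjustment, called 0. It also called 0 of all probes under miR-26a, so it cannot tell the comparisons apart. The median log2 change of the 11 probes was 0.01, from -0.26 to 0.21, so that the 2 ends were the 5′ Tcf7l2 probe and the 3′ Gsk3b probe.

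The 5′ Tcf7l2 probe changed by -0.26 ± 0.07 (SE, limma adjusted p = 0.228) with the sponge, by -0.27 in experiment 1 and -0.25 in experiment 2. The 3′ Gsk3b probe changed by 0.21 ± 0.08 (SE, limma adjusted p = 0.300), by 0.12 and 0.29 in the 2 experiments. The 95% confidence intervals of these 2 changes, -0.43 to -0.09 and 0.01 to 0.40, did not hold 0, although neither passed the adjusted threshold. For the other 4 probes that had fallen or risen under miR-26a, the sponge changes were 0.14 on Lef1 A_55_P2076871 (95% confidence interval -0.03 to 0.30), 0.03 on Lef1 A_51_P420400 (-0.15 to 0.22), -0.03 on the HMG box probe of Tcf7l2 (-0.19 to 0.14) and 0.01 on Ctnnb1 (-0.18 to 0.19). The intervals of these 4 hold changes of either sign, and all these values share their control arrays with the miR-26a values.

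**Figure D2:**
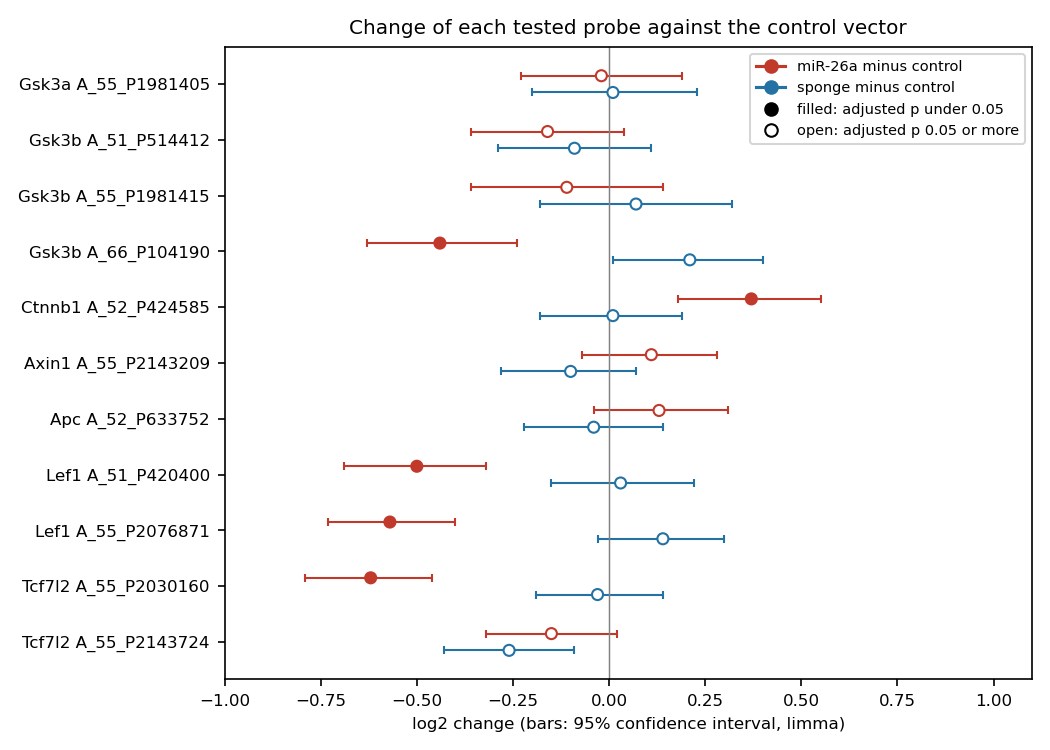
Log2 change of each of the 11 tested probes against the control vector (x axis) for miR-26a and for the sponge, with bars for the 95% confidence interval of limma and filled points for an adjusted p under 0.05. Filled points occur for miR-26a only: 4 below 0 (-0.62 to -0.44) and Ctnnb1 at 0.37, whereas the sponge points run from -0.26 to 0.21.

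The miR-26a and sponge arrays were also compared directly, which uses no control array for the difference. The miR-26a arrays are the same as in the comparison with the control, so these comparisons are not independent. Here 4 member probes were lower under miR-26a and 1 was higher, beside 8.49% and 8.28% of all tested probes. The log2 differences were -0.70 (limma adjusted p = 0.00443) and -0.54 (0.0118) for the Lef1 probes A_55_P2076871 and A_51_P420400, -0.64 (0.00867) for the 3′ Gsk3b probe, -0.60 (0.00662) for the HMG box probe of Tcf7l2 and 0.36 (0.0314) for Ctnnb1. Axin1 was higher by 0.21 with an adjusted p of 0.0935. With either control array left out, 4 of these probes were still called. With a sponge array left out most calls were lost, and the probe that stayed differed between the sponge arrays.

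**Figure D3:**
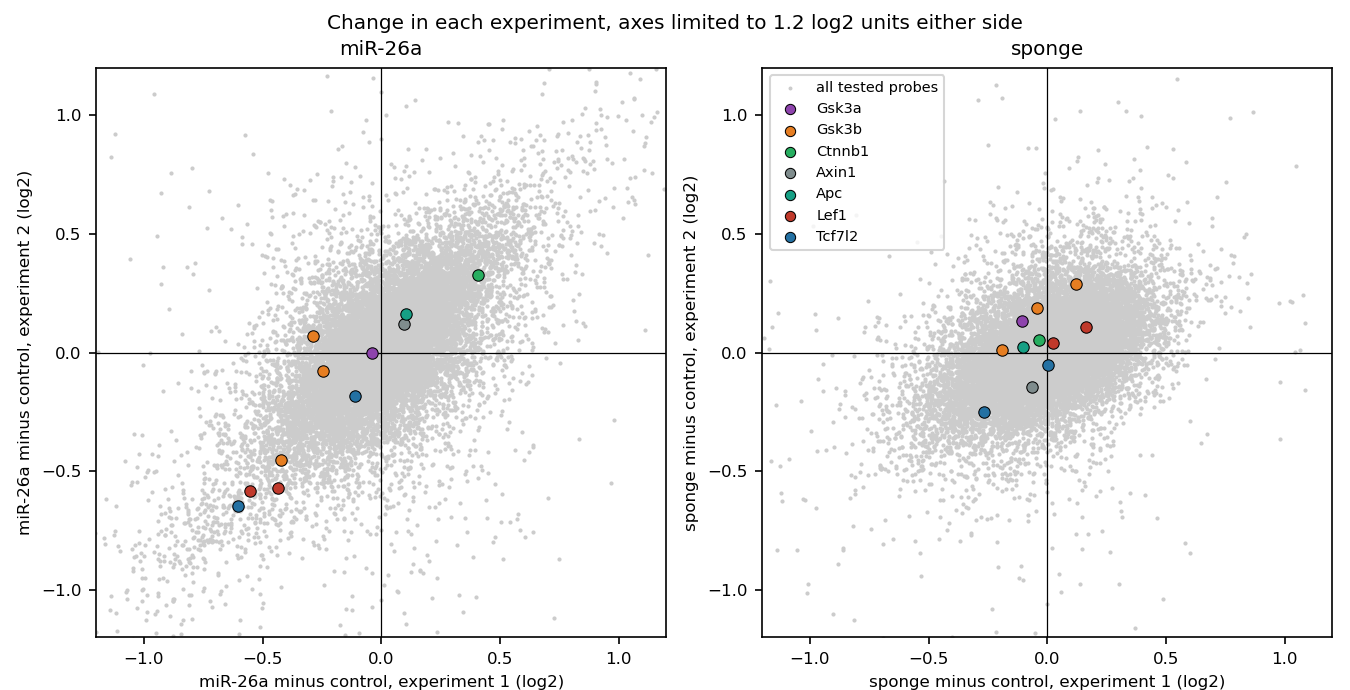
Log2 change against the control array of the same experiment, in experiment 1 (x axis) and experiment 2 (y axis), for miR-26a (left) and sponge (right), with all 20168 tested probes in grey (those within 1.2 units of 0) and the 11 member probes coloured by gene. Under miR-26a the 4 called lower probes lie between -0.65 and -0.42 in both experiments, and the middle Gsk3b probe changes sign between them.

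Probes with the most similar pattern over the 6 arrays, after each experiment was centred, were looked up among 15195 annotated probes of other genes (15194 for Gsk3b) as a description. All points share the same 6 arrays in 3 groups, so high correlations are common. For the brightest Lef1 probe these were Cmpk1, Cops2 and Tmem173, each with a Pearson r of 1 at 3 decimals, beside a 99.9th percentile of 0.998 over all probes searched. For the brightest Tcf7l2 probe, the 5′ one, they were Rnf157 (0.998), Sfpi1 (0.995) and Gpr157 (0.995), with a 99.9th percentile of 0.985. For the brightest Gsk3b probe, the middle one, they were Slc10a7 (0.997), 2410001C21Rik (0.995) and Rc3h1 (0.995), with a 99.9th percentile of 0.982.

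The other genes of the pathway were followed in 8 lists of 133 genes, of which 69 were tested, each by its brightest tested probe. Under miR-26a, 8 of the 69 fell, 4 rose and 57 did not pass the test, with a median log2 change of -0.03. These calls were 17.4% of the 69, beside 9.64% of all tested probes, which include probes without a gene name. With the probes of a gene averaged, 1825 of 11273 gene names were called, a larger share than that of probes. The shares of all tested probes, here and below, are thus not a like-for-like base for lists of genes. The lists were chosen with earlier results of these data known, so their shares, here and below, are a description only. In the sponge comparison 0 of the 69 were called by limma. Without either control array, 0 of the 69 were called under miR-26a, and without the experiment block 2 were, both lower.

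In the following counts, the share of all tested probes was 5.14% lower and 4.5% higher. Of the Wnt ligands, 2 of 21 genes were bright enough to test and neither passed, with the largest change at -0.11 for Wnt1. Among 5 tested receptors, Lgr5, a receptor for R-spondins, fell by 1.04 on the log2 scale (limma adjusted p = 0.0164), and the other 4 did not pass. The other Lgr5 probe was well above background on no array and was not tested. Among 3 tested antagonists, Nkd2, which binds dishevelled and dampens the signal, fell by 0.81 (adjusted p = 0.00625), and by 1.24 on its other probe. The 2 tested catenins and cadherins did not pass, with Ctnnal1 at 0.20.

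All 27 dishevelled genes and partners of the destruction complex were tested, and 3 fell, 0 rose and 24 did not pass, with a median of -0.06. The 3 calls were 11.1% of the list, near the 9.64% of all tested probes. Frat1 fell by 0.91 (limma adjusted p = 0.0159) and Frat2 by 0.63 (adjusted p = 0.0196), although its other probe was at -0.18 (adjusted p = 0.395). Both encode proteins that bind GSK3 and keep it from beta-catenin. Ppp2r5c, a regulatory subunit of protein phosphatase 2A, fell by 0.38 (adjusted p = 0.0318), and all of its 3 probes passed.

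Of 18 tested nuclear cofactors of beta-catenin, 0 fell, 1 rose and 17 did not pass, so that 5.56% were called, beside 9.64% of all tested probes. Tle6, of the Groucho family of corepressors, rose by 0.77 (limma adjusted p = 0.0114). Tle5, a short member of that family listed as Aes on the array, was at 0.10 on its brighter probe (adjusted p = 0.437) and at 0.84 on the other (adjusted p = 0.00663), so that its probes disagreed.

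Among 8 tested target genes of beta-catenin, 3 fell and 2 rose, and the median was -0.04. The calls were 62.5% of the 8 genes, beside 9.64% of all tested probes. Lgr5, given above, and Tnfrsf19, a TNF receptor family member, fell, the latter by 0.54 (limma adjusted p = 0.0180), and Jun, a subunit of the AP-1 factor, fell by 0.54 (adjusted p = 0.0306). Id2, an inhibitor of helix-loop-helix factors, rose by 0.88 (adjusted p = 0.0133), and Myc, which drives cell growth, rose by 0.58 (adjusted p = 0.0154). The called targets thus went in both directions.

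Of 7 tested GSK3 substrates and the proteins that read their phosphorylated degrons, 1 fell and 2 rose, or 42.9% of the 7 beside 9.64% of all tested probes. Ccne1, the gene of cyclin E1, fell by 0.60 (limma adjusted p = 0.0120), with its other probe at -0.39 (adjusted p = 0.0874). Myc, also in this list, and Fbxw7, the ubiquitin ligase subunit that recognizes both proteins after phosphorylation, rose, the latter by 0.45 (adjusted p = 0.0216) and by 0.48 on its other probe.

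With the sponge, the members of these lists that were farthest from the control did not pass the test. Tle5 was at -0.45 (limma adjusted p = 0.192), Dvl3, a dishevelled gene, at -0.44 (adjusted p = 0.222), and Nkd2 at 0.42 (adjusted p = 0.195). Between miR-26a and sponge, 12 of the 69 genes were lower and 11 higher, or 33.3%, beside 16.8% of all tested probes, including Nkd2 at -1.23 (adjusted p = 0.00202) and Tle6 at 0.98 (adjusted p = 0.00461).

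**Figure D4:**
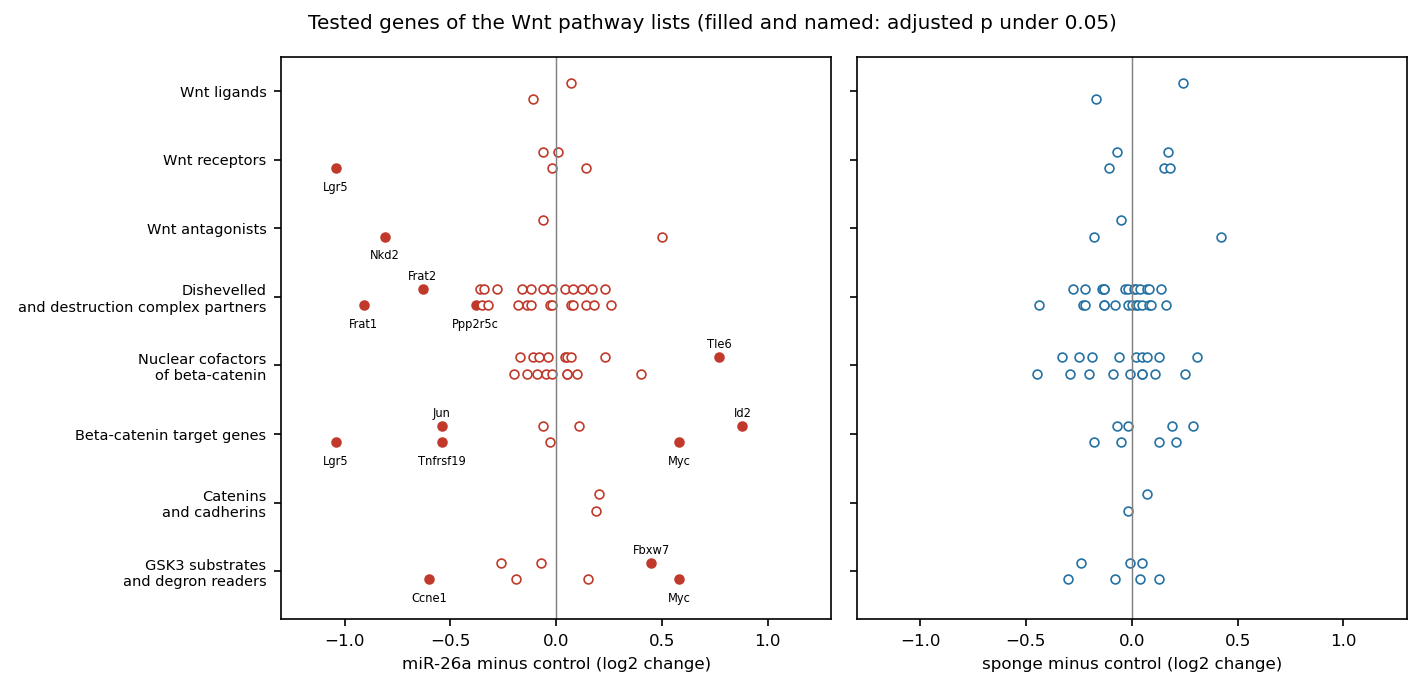
Log2 change against the control (x axis) of the 69 tested genes of the 8 pathway lists (rows), for miR-26a (left) and sponge (right), 1 point per gene and list from its brightest tested probe, so that Lgr5 and Myc appear in 2 lists. Filled, named points have a limma adjusted p under 0.05: 8 genes below 0 and 4 above 0 for miR-26a, and 0 for the sponge.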

How the data were processed

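Total RNA of each culture was labelled with Cy3 and hybridized to Agilent mouse 8x60K arrays (6 arrays, 1 slide), and scans were read with Agilent Feature Extraction (10.7.1.1 in the submitters' processing notes). The deposited scanner files hold background-subtracted intensity per spot. A deposited table of the authors' quantile-normalized intensity served as an alternative. Here, the background-subtracted intensity was quantile-normalized and taken to log2, and replicate spots were averaged. A probe was tested if at least 1 array called it well above background and at least 4 arrays exceeded 50 (20168 probes, of 11273 gene names, and 4971 without one). limma (3.58.1, R 4.3.3) used all 6 arrays and a term for the experiment, which the labels and methods pair, with Benjamini-Hochberg adjustment over all probes. This left 2 residual degrees of freedom. Same-numbered arrays deviated together (r = 0.38 to 0.59), and each experiment lay in 1 row of the slide. An exact test of 2 against 2 arrays cannot go below p = 0.333. The number of arrays limits the precision. An unpaired t-test, other scalings, filters and left-out arrays were alternatives.

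Probe positions and gene names are those of the scanner files (mm9). Lists use 1 probe per gene, the brightest tested. Every member probe is named, and of each list up to 4 called genes with the largest change, or the gene with the largest change where none was called. Jun and the second probes of listed genes were added after their values were seen. The members and lists were chosen with earlier results of these data known. The fit was tested on simulated data. Labels of the control arrays quote other record numbers, and whether these RNAs were first used elsewhere is not given in the sources used here.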

Additional observations from a re-analysis of the deposited data

How the results depend on the processing

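With 2 arrays a group, 2 residual degrees of freedom and dim signals for Axin2 and Tcf7, small changes could not be detected. Member probes called between miR-26a and control, sponge and control, and miR-26a and sponge numbered 5, 0 and 5. The replicate block mattered: without it they numbered 1, 0 and 4 (all probes: 311, 2 and 997 called instead of 1944, 2 and 3381, with 76.5% in place of 53.3% of the miR-26a calls lower, and 63.4% in place of 50.6% between miR-26a and sponge). With no filter on dim probes, and likewise with the unpaired t-test, 0 members and 0 of all probes were called in every comparison. With the probes of a gene averaged, 3, 0 and 4 were called. From the 4 arrays of each comparison alone the counts were 4, 0 and 4, with 1123, 35 and 1883 of all probes. Leaving out 1 array at a time gave 0 to 4, 0, and 1 to 5 members, and 104 to 1599, 0 to 35, and 410 to 2436 of all probes. Over all probes, sponge against control gave 36 calls with normexp background correction and 4 each with 75th percentile scaling, the filter on all 6 arrays and averaged probes. The 5 member changes called in each miR-26a comparison kept their direction under every alternative run. Some uncalled changes turned sign: with normexp, sponge against control for Gsk3a was -0.01, and with averaged probes Gsk3b A_51_P514412 was 0.06 for sponge against control. Averaged with the probe that fell, Tcf7l2 A_55_P2143724 went from 0.11 to -0.24 for miR-26a against sponge and was called (limma adjusted p = 0.0369). With 1 array left out, miR-26a against control ran from -0.09 to 0.05 for Gsk3a and from -0.26 to 0.04 for Gsk3b A_55_P1981415, and miR-26a against sponge from -0.15 to 0.08 for Gsk3a. Sponge against control ran from -0.10 to 0.13 for Gsk3a, -0.18 to 0.00 for Gsk3b A_51_P514412, -0.08 to 0.22 for Gsk3b A_55_P1981415, -0.06 to 0.07 for Ctnnb1, -0.09 to 0.01 for Apc, and -0.01 to 0.08 for Lef1 A_51_P420400. The causes were not tested.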
